A study of Mus musculus with 6 samples.

Results

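The genes described here are 10 genes of the epithelial-mesenchymal transition (EMT): the transcription factors *Snai1*, *Snai2*, *Twist1*, *Twist2*, *Zeb1* and *Zeb2*, the cadherins *Cdh1* and *Cdh2*, the intermediate filament gene *Vim* and the splicing regulator *Esrp1*. They were chosen by gene symbol from the deposited RNA-Seq table, and 10 of 10 listed symbols were found among its 15280 genes. The study sequenced total RNA of 3 mammary tumors and of 3 normal mammary glands, each gland taken next to the tumor of the same mouse. The mice were female BK5.ATF3 transgenic animals, in which the bovine cytokeratin-5 promoter drives *ATF3* in basal epithelial cells, and they had borne and raised 1 litter. Tumors arose at an age of 6 to 12 months and were collected at a length of 1.5 cm. Both tissues carried the transgene, so the comparison is of tumor against transgenic gland, with no wild-type tissue. Each mouse gave 1 gland library (M11035, M11640 or M9232) and 1 tumor library of the same number (T11035, T11640 or T9232).

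EMT is the change in which epithelial cells give up their junctions and apical-basal polarity and take on a migratory, mesenchymal form. The Snail, Twist and ZEB factors drive it, in large part by repressing *Cdh1*, which encodes E-cadherin, the adhesion molecule of epithelial adherens junctions. In the classical cadherin switch E-cadherin gives way to N-cadherin (*Cdh2*), the intermediate filament vimentin (*Vim*) appears, and the loss of *Esrp1* lets transcripts take their mesenchymal splice forms. The same factors and *Vim* are also made by cells that never were epithelial, such as fibroblasts, endothelial cells and leukocytes, and *Snai2* is made by basal mammary epithelial cells.

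The transcript levels of the whole tumor tissue, which mixes cell types, did not follow the pattern of a cadherin switch. *Cdh1* rose 5.02-fold (95% interval 3.27 to 7.72) and *Esrp1* rose 4.55-fold (95% interval 2.81 to 7.36), while *Cdh2* had a mean of 9.57 ± 1.31 CPM (SD, n = 3) in the glands and 9.59 ± 1.97 CPM in the tumors. *Snai1*, *Snai2* and *Twist2* rose, *Zeb1* fell, and *Twist1*, *Zeb2* and *Cdh2* did not pass the test. *Vim* was 1.59-fold higher in the tumors and passed the adjusted p, but lay under the fold of 2 required for a call. The values are CPM, fragments on a gene scaled to the library's effective size. Fold changes were fitted by limma on log2(CPM + 0.5), which understates the change of genes near 0, and a gene was called with an adjusted p no higher than 0.05 and a fold of 2 or more. Of the 10 genes, 5 were called higher and 1 lower in the tumors, where 14.5% of all 15280 genes were called higher and 13.7% lower. All 3 tumors lay above all 3 glands in 6 of the 10 genes and below them in 1, against 27.6% and 26.3% of all genes. The count of 5 came to 3 without gland M9232, tumor T11035 or tumor T9232, since *Snai1* and *Twist2* then lost their calls.

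**Figure D1:**
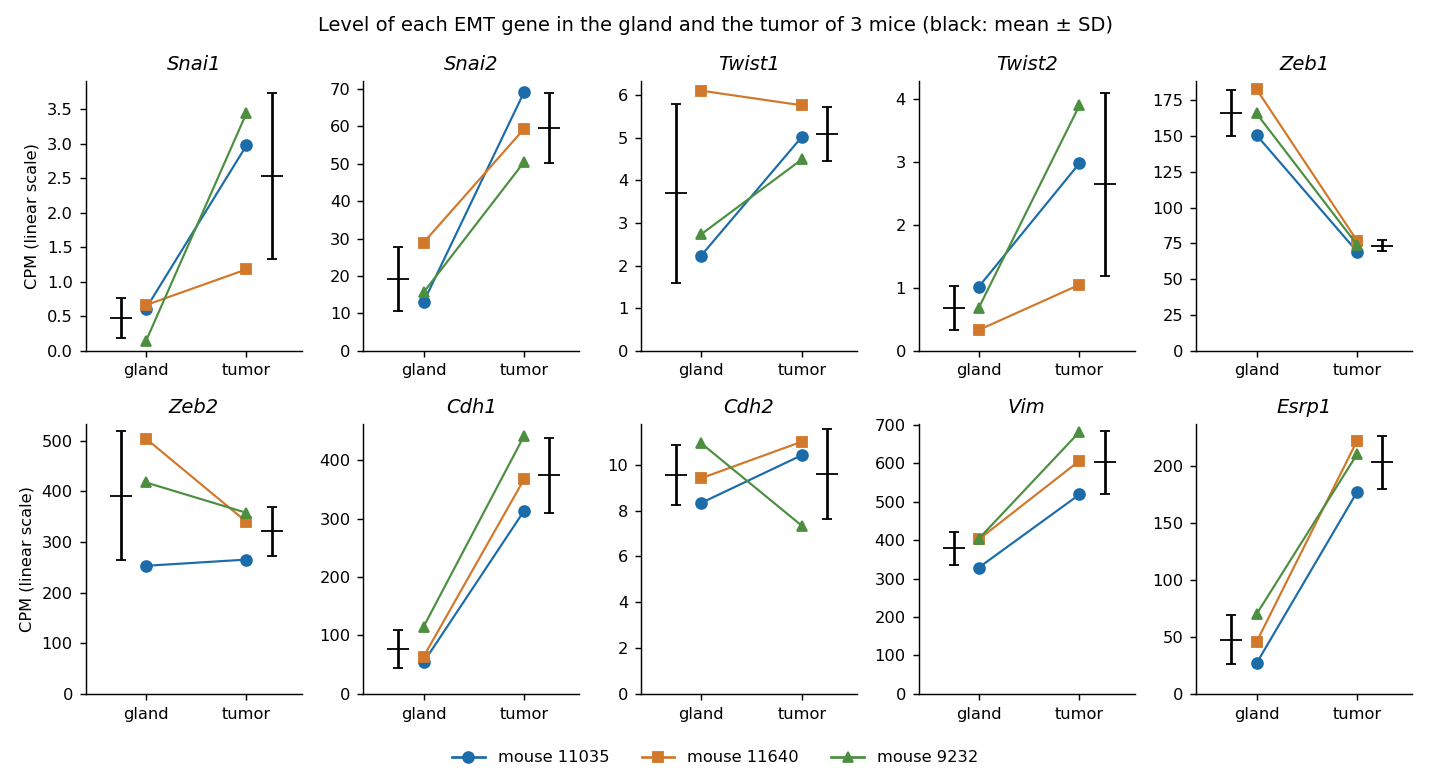
Level of each of the 10 genes in CPM (linear axes from 0, a scale for each gene) in the gland and the tumor of 3 mice, with lines joining the 2 libraries of a mouse and black bars giving the mean ± SD of each tissue. The lines of *Snai1*, *Snai2*, *Twist2*, *Cdh1*, *Vim* and *Esrp1* climb in 3 of 3 mice, those of *Zeb1* drop in 3 of 3, and those of *Twist1*, *Zeb2* and *Cdh2* cross or overlap.

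The libraries held 4750989 to 7372155 fragments on genes in the glands and 5116883 to 7806908 in the tumors, so a floor of 3 fragments stood at 0.393 to 0.610 CPM. These are bulk tissues, in which fewer cells of a type and less RNA per cell cannot be told apart. The summed level of 8 adipocyte markers, all 8 called lower, was 3131 to 6315 CPM in the glands and 159 to 215 CPM in the tumors, and that of 6 lymphocyte markers, all 6 called lower, was 199 to 502 CPM against 13.0 to 22.3 CPM. The sum of 6 squamous markers, all 6 called higher, was 5.69 to 8.09 CPM in the glands and 1533 to 2653 CPM in the tumors, and *Ivl*, *Lor* and *Sprr1b* of that list were at or under the floor in every gland. Among the glands, M11035 and M11640 held 3679 and 1455 CPM of 5 skeletal muscle markers, while M9232 held 4.24 CPM. The part of muscle tissue in the results was not tested. The *Atf3* row itself, which may or may not take up the transgene's fragments, was at 11.7 ± 9.58 CPM in the glands and 17.0 ± 3.18 CPM in the tumors and did not pass the test (adjusted p = 0.224, limma).

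**Figure D2:**
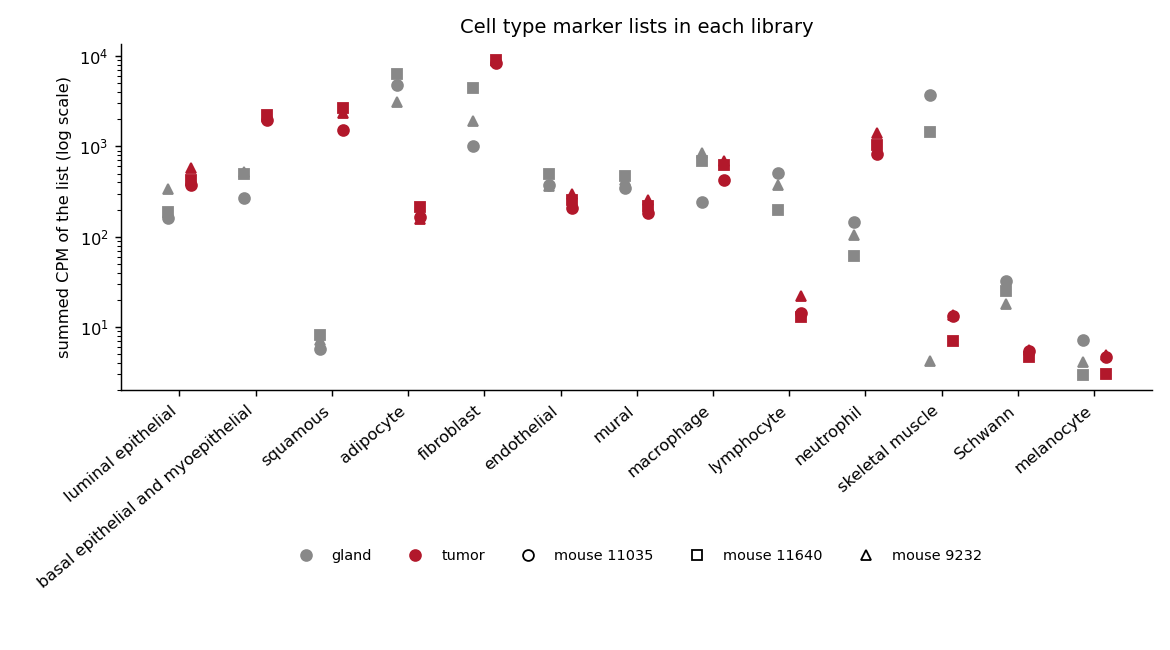
Summed CPM of 13 cell type marker lists (log axis) in the 3 glands (grey) and the 3 tumors (red), with a symbol for each mouse. Squamous, basal and neutrophil lists were higher in every tumor and adipocyte, lymphocyte and Schwann lists lower, while the macrophage and melanocyte lists overlapped between the tissues.

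*Snai2* encodes Slug, a zinc finger repressor that binds E-boxes, and lies at chr16:14705945-14709488 of the mm9 genome in 3 exon blocks. It was at 13.0, 28.9 and 15.6 CPM in glands M11035, M11640 and M9232. In tumors T11035, T11640 and T9232 it was at 69.2, 59.4 and 50.5 CPM. Every tumor was above every gland, and the lowest tumor stood clear of the highest gland. *Snai2* rose by 1.69 on the log2 scale (SE 0.29, adjusted p = 0.00196, limma), a 3.22-fold change with a 95% interval of 2.04 to 5.07. The within-mouse differences were 2.37, 1.03 and 1.66 on the log2 scale in the mice of M11035, M11640 and M9232. The mouse of M11640 had both the highest gland and the smallest difference.

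*Snai1*, the founding Snail repressor, lies at chr2:167363695-167368314 (mm9). It was far less abundant than *Snai2*, with 0.289 CPM per kb of exon in the glands against 9.44 for *Snai2*, and 1.56 against 29.4 in the tumors. It was at 0.610, 0.661 and 0.137 CPM in glands M11035, M11640 and M9232, which are 3, 4 and 1 fragments. It was at 2.98, 1.18 and 3.45 CPM in tumors T11035, T11640 and T9232, from 16, 9 and 23 fragments. The exact Poisson interval of the highest gland, 0.180 to 1.69 CPM, overlapped that of tumor T11640, 0.539 to 2.24 CPM, and such intervals cover counting error only, since amplified cDNA copies are not independent molecules. *Snai1* rose by 1.60 on the log2 scale (SE 0.44, adjusted p = 0.0197, limma). That is 3.04-fold on the scale with 0.5 CPM added, while the ratio of the mean CPM was 5.40. Without gland M9232, tumor T11035 or tumor T9232 the log2 fold change was 1.33, 1.46 or 1.37 and the call was lost (adjusted p = 0.0515, 0.0611 and 0.0741, limma).

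The ratio of *Snai2* to *Snai1* within a library did not differ between the tissues beyond its spread. It was 21.3, 43.8 and 114 in CPM in glands M11035, M11640 and M9232. In tumors T11035, T11640 and T9232 it was 23.2, 50.3 and 14.7. With 0.5 CPM added to both genes the difference on the log2 scale was 0.08, with a p of 0.9 by a two-sided exact permutation test of 3 against 3 libraries. With 0.1 CPM added it was -0.55 and with 1 CPM added 0.44, so its sign depends on the pseudocount. The ratio of gland M9232 rests on 1 fragment of *Snai1*.

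Promoter sequence is shown for *Snai1* and for *Zeb2*, since Snail and ZEB factors bind E-boxes and ATF3 binds ATF/CREB and AP-1 motifs, and these were the windows that held a motif of either kind. The windows span 250 bases before to 50 bases after a transcription start and come from RefSeq on GRCm38.p6. They were matched by symbol, and 5 of the 10 genes (*Snai1*, *Twist1*, *Twist2*, *Zeb2* and *Vim*) had 8 windows. *Snai2*, *Zeb1*, *Cdh1*, *Cdh2* and *Esrp1* were not analysed here. The *Snai1* window is chr2:167537945-167538244 on the plus strand, with CACCTG in capitals, starting 126 bases before the start site. The *Zeb2* window is the 4th of its 4, chr2:45110228-45110527 on the minus strand, with 2 matches to TGANTCA in capitals, starting 189 and 132 bases before the start site.
Snai1: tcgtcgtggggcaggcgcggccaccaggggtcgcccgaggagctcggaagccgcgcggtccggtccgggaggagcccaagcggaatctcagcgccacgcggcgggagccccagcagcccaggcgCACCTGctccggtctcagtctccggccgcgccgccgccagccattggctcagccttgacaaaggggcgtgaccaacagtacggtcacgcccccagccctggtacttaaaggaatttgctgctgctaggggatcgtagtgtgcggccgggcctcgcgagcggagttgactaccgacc
Zeb2: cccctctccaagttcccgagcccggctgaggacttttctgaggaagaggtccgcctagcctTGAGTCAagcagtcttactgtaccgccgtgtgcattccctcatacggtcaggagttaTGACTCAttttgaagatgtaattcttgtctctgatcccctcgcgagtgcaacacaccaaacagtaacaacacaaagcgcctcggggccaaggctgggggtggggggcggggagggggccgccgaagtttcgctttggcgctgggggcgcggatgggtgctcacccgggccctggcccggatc
The motifs searched, on both strands, were CAGGTG or CACCTG, the E-box bound by Snail and ZEB factors, then CANNTG, the general E-box that also takes in the former, TGANTCA for AP-1, and TGACGTCA for ATF and CREB factors. The other 6 windows, those of *Twist1*, *Twist2* and *Vim* and 3 of *Zeb2*, held none of them. Of 32851 mouse promoter windows of the same length, 20.2% held CAGGTG or CACCTG, 72.3% held CANNTG, 7.81% held TGANTCA and 1.79% held TGACGTCA. A match describes these letters only and is not a binding site.

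*Twist2* encodes a basic helix-loop-helix factor of mesenchymal cells. It was at 1.02, 0.330 and 0.684 CPM in glands M11035, M11640 and M9232, from 5, 2 and 5 fragments. It was at 2.98, 1.05 and 3.90 CPM in tumors T11035, T11640 and T9232, from 16, 8 and 26 fragments. The groups did not overlap, but tumor T11640 lay just above gland M11035. *Twist2* rose by 1.33 on the log2 scale (SE 0.46, adjusted p = 0.0477, limma), or 2.51-fold with 0.5 CPM added, and the ratio of the mean CPM was 3.90. The call was lost without gland M11640 or M9232 or without tumor T11035 or T9232, with adjusted p of 0.132, 0.0784, 0.125 and 0.156 (limma).

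*Twist1*, the paralog best known from carcinoma EMT, was at 2.24, 6.11 and 2.74 CPM in glands M11035, M11640 and M9232. In tumors T11035, T11640 and T9232 it was at 5.02, 5.77 and 4.50 CPM. The tissues overlapped because gland M11640 was above all 3 tumors, and the gene was higher in the tumor of 2 of 3 mice. The log2 fold change was 0.52, with a 95% interval of -0.29 to 1.33 (adjusted p = 0.275, limma), which holds both no difference and a fold above 2. It was 0.90 without gland M11640 (adjusted p = 0.0427, limma) and 0.27 without gland M11035, in neither case a call. The ratio of *Twist1* to *Twist2* differed by -0.81 on the log2 scale between tumors and glands, with a p of 0.4 by the two-sided exact permutation test. *Twist1* lies at chr12:34642536-34644682 and *Twist2* at chr1:93698038-93744605 (mm9).

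*Zeb1*, a zinc finger and homeodomain repressor of *Cdh1*, was the single factor of the group that fell. It was at 151, 183 and 166 CPM in glands M11035, M11640 and M9232. It was at 69.2, 76.8 and 74.0 CPM in tumors T11035, T11640 and T9232. The highest tumor was below the lowest gland, and the 3 tumors had the smallest relative spread of any of the 10 genes, with a coefficient of variation of 5.23%. *Zeb1* fell by 1.17 on the log2 scale (SE 0.14, adjusted p = 2.66e-04, limma), a level 2.25-fold lower in the tumors. The within-mouse differences were -1.12, -1.25 and -1.16. *Zeb1* lies at chr18:5591858-5775465 (mm9).

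*Zeb2*, its paralog, was at 253, 504 and 417 CPM in glands M11035, M11640 and M9232. It was at 265, 340 and 358 CPM in tumors T11035, T11640 and T9232. Gland M11035 was below every tumor while the other 2 glands were above every tumor, so the tissues overlapped. The log2 fold change was -0.24, with a 95% interval of -0.81 to 0.33 (adjusted p = 0.471, limma). *Zeb2* lies on the minus strand at chr2:44839154-44972915 (mm9), where 2.98% of its exon bases overlap the antisense lincRNA *Gm13476*. The *Gm13476* row was at 7.44 ± 2.005 CPM in the glands and 4.84 ± 1.29 CPM in the tumors.

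Relative to *Zeb2*, *Zeb1* stood lower in the tumors. *Zeb1* was 0.596, 0.363 and 0.397 times *Zeb2* in CPM in glands M11035, M11640 and M9232 and 0.261, 0.226 and 0.207 times in the tumors of the same mice. Every tumor was below every gland, and the log2 ratio differed by -0.93, with a p of 0.1 by the two-sided exact permutation test, the smallest that 3 against 3 can give, and 0.2 after adjustment over the 10 ratios tested. Of 8 endothelial markers 3 were called lower by limma, beside 13.7% of all genes, and 2 by edgeR and by DESeq2. The sum of the 8 was 364 to 497 CPM in the glands and 209 to 297 CPM in the tumors, beside the lower adipocyte and lymphocyte lists given above. The summed level of 7 macrophage markers was 244 to 842 CPM in the glands and 422 to 687 CPM in the tumors, with 0 called by limma, edgeR or DESeq2 and 1 at an unadjusted p under 0.05. Against the mean log2 level of 8 fibroblast markers, *Zeb1* differed by -2.34 (p = 0.1, exact permutation test). That mean includes *Col1a1*, *Col1a2* and *Col3a1*, which themselves rose by 4.63, 3.75 and 2.60 on the log2 scale. Against the 7 macrophage markers, *Zeb2* differed by -0.70 (p = 0.2, exact permutation test). The part of these cell types in the levels of *Zeb1* and *Zeb2* was not tested.

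*Cdh1*, the E-cadherin gene, had the largest log2 fold change of the 10 genes on the scale with 0.5 CPM added, while the ratio of the mean CPM was larger for *Snai1*, at 5.40 against 4.83. It was at 54.1, 63.6 and 115 CPM in glands M11035, M11640 and M9232. It was at 313, 367 and 442 CPM in tumors T11035, T11640 and T9232. The lowest tumor was well above the highest gland. *Cdh1* rose by 2.33 on the log2 scale (SE 0.27, adjusted p = 2.49e-04, limma), and 94.8% of all genes had a lower log2 fold change. The order of the mice was the same in both tissues, with M9232 and T9232 highest, and the within-mouse differences were 2.52, 2.52 and 1.94. *Cdh1* lies at chr8:109127251-109194146 (mm9).

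*Cdh2*, the N-cadherin gene, was at 8.34, 9.41 and 10.9 CPM in glands M11035, M11640 and M9232. It was at 10.4, 11.01 and 7.34 CPM in tumors T11035, T11640 and T9232. The tissues overlapped, with the lowest and the highest library both a tumor. The log2 fold change was -0.01, with a 95% interval of -0.54 to 0.52 (adjusted p = 0.982, limma), so a change of up to 1.44-fold either way lies within the interval. It was higher in the tumor of 2 of 3 mice, and its sign turned with the choice of tool or library. *Cdh2* lies on the minus strand at chr18:16747386-16967755 (mm9).

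Relative to *Cdh1*, *Cdh2* stood lower in every tumor. *Cdh2* was 0.154, 0.148 and 0.0953 times *Cdh1* in CPM in glands M11035, M11640 and M9232. It was 0.0333, 0.0300 and 0.0166 times *Cdh1* in tumors T11035, T11640 and T9232. Every tumor was below every gland, and within the mice the log2 ratio differed by -2.22, -2.31 and -2.48. The mean difference of -2.34 is a ratio 5.05-fold lower in the tumors (p = 0.1, two-sided exact permutation test, the smallest possible, and 0.2 after adjustment). A cadherin switch within epithelial cells would raise this ratio. These are bulk tissues, however, and the part of epithelial cell content in the ratio was not tested. A lower *Cdh2* to *Cdh1* ratio follows from the levels of the genes above and is not a separate measurement.

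**Figure D3:**
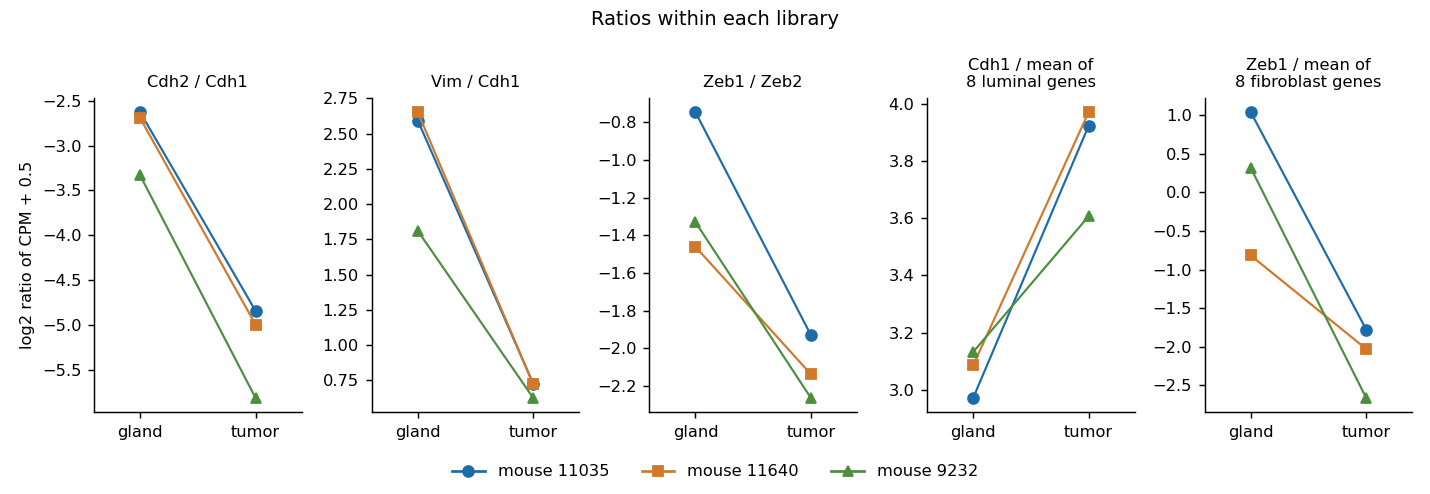
Log2 ratios of CPM + 0.5 within each library, gland and tumor of each mouse joined by a line, for *Cdh2* to *Cdh1*, *Vim* to *Cdh1*, *Zeb1* to *Zeb2*, *Cdh1* to the mean of 8 luminal markers and *Zeb1* to the mean of 8 fibroblast markers (each panel has its own axis). *Cdh2* to *Cdh1* drops by 2.22 to 2.48 in the 3 mice, and *Cdh1* to luminal markers climbs by 0.48 to 0.95.

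*Vim* encodes vimentin, the intermediate filament of mesenchymal cells and leukocytes. It was at 329, 402 and 404 CPM in glands M11035, M11640 and M9232. It was at 519, 607 and 682 CPM in tumors T11035, T11640 and T9232. Every tumor was above every gland and the within-mouse differences were alike, at 0.66, 0.59 and 0.75 on the log2 scale. The log2 fold change was 0.67 (SE 0.15, adjusted p = 0.00864, limma), with a 95% interval of 0.32 to 1.02. Of the 10 genes 7 passed the adjusted p, beside 6289 of all 15280 genes. Among those 7, *Vim* was the 1 whose fold was too small for a call. *Vim* lies at chr2:13495554-13504453 (mm9).

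The ratio of *Vim* to *Cdh1* was lower in the tumors too. *Vim* was 6.08, 6.33 and 3.52 times *Cdh1* in CPM in glands M11035, M11640 and M9232, and 1.66, 1.65 and 1.54 times *Cdh1* in the tumors of the same mice. The log2 ratio differed by -1.66 on average, with no overlap between the tissues (p = 0.1, exact permutation test). Against the mean log2 level of the same 8 fibroblast markers, rising collagen genes included, *Vim* differed by -0.50, with a p of 0.5 by the exact permutation test. The direction in the mouse of M11640 was opposite to that in the other mice. The 4 markers listed for neutrophils, a *Vim*-expressing leukocyte, were all called higher. Their sums were 61.6 to 145 CPM in the glands and 815 to 1399 CPM in the tumors. *S100a8* and *S100a9* rose by 4.34 and 4.26 on the log2 scale, and *Csf3r* and *Cxcr2* by 2.38 and 1.68. All 6 squamous markers rose in the same tumors, and which cells made *S100a8* and *S100a9* was not tested. Other leukocyte lists did not rise with the neutrophil list. All 6 lymphocyte markers were called lower, at 199 to 502 CPM against 13.0 to 22.3 CPM, and 0 of 7 macrophage markers were called. The part of these cells in the level of *Vim* was not tested.

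*Esrp1* encodes an RNA-binding protein that holds exons of *Fgfr2*, *Cd44*, *Ctnnd1* and *Enah* in their epithelial form. It was at 26.8, 45.6 and 69.9 CPM in glands M11035, M11640 and M9232. It was at 177, 222 and 210 CPM in tumors T11035, T11640 and T9232. The tumors lay close together and far above the glands. *Esrp1* rose by 2.18 on the log2 scale (SE 0.31, adjusted p = 6.62e-04, limma), with within-mouse differences of 2.70, 2.27 and 1.58. It lies on the minus strand at chr4:11259080-11313930 (mm9), where 2.01% of its exon bases overlap the antisense lincRNA *Gm16652*, which was not analysed here. As with *Cdh1*, gland M9232 was the highest of the glands and its mouse had the smallest difference.

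Markers of epithelial cells gave calls in both directions beside *Cdh1* and *Esrp1*. Of 8 luminal markers 5 were called higher, beside 14.5% of all genes. The sum of the 8 was 159 to 334 CPM in the glands and 371 to 577 CPM in the tumors. Among the glands that sum was likewise highest in M9232. Of 6 basal and myoepithelial markers 3 were called higher and 2 lower, beside 14.5% and 13.7% of all genes. The sum of the 6 was 266 to 517 CPM in the glands and 1958 to 2212 CPM in the tumors. *Krt5* of the mouse, whose bovine counterpart gave the transgene its promoter, was at 24.5 ± 13.3 CPM in the glands and 986 ± 71.1 CPM in the tumors. *Krt5*, *Krt14* and *Trp63* were called higher, by 5.48, 5.75 and 3.41 on the log2 scale. *Oxtr* and *Mylk* of the same list were called lower, by 4.83 and 1.79, and *Acta2* was not called. Relative to the mean log2 level of the 8 luminal markers, *Cdh1* was higher in the tumor of each mouse by 0.95, 0.89 and 0.48 (p = 0.1, exact permutation test). *Esrp1* was higher by 1.13, 0.64 and 0.12 on that measure (p = 0.2, exact permutation test). This reference holds luminal genes only, and its *Cldn4* averaged 0.609 CPM in the glands, near the floor. *Krt5*, *Krt14* and *Trp63* rose by more than *Cdh1* (2.33) and *Esrp1* (2.18), while *Oxtr* and *Mylk* fell. Ratios of *Cdh1* and *Esrp1* to the basal markers were not tested. The part of epithelial cell content in the rises of *Cdh1* and *Esrp1* was not tested.

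Compared per kb of exon, the order of the genes differed between the tissues. In the glands it ran from *Vim* (162 CPM per kb) through *Zeb2* (25.5), *Zeb1* (17.1), *Cdh1* (16.9), *Snai2* (9.44), *Esrp1* (7.52), *Twist1* (2.29), *Cdh2* (1.19) and *Twist2* (0.509) to *Snai1* (0.289). Neighbours from *Zeb2* to *Esrp1* overlapped in their ranges over the 3 glands, as did *Twist2* and *Snai1*. In the tumors the levels per kb were 258 for *Vim*, 81.8 for *Cdh1*, 32.2 for *Esrp1*, 29.4 for *Snai2*, 20.9 for *Zeb2*, 7.55 for *Zeb1*, 3.15 for *Twist1*, 1.99 for *Twist2*, 1.56 for *Snai1* and 1.19 for *Cdh2*. There *Esrp1* overlapped *Snai2*, and *Twist1*, *Twist2*, *Snai1* and *Cdh2* each overlapped the next in that order. *Vim* led in both tissues. *Cdh1* was above both ZEB genes in every tumor, and in the glands it overlapped both. The exon lengths came from GENCODE gene models and not from the RefSeq models used for counting.

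**Figure D4:**
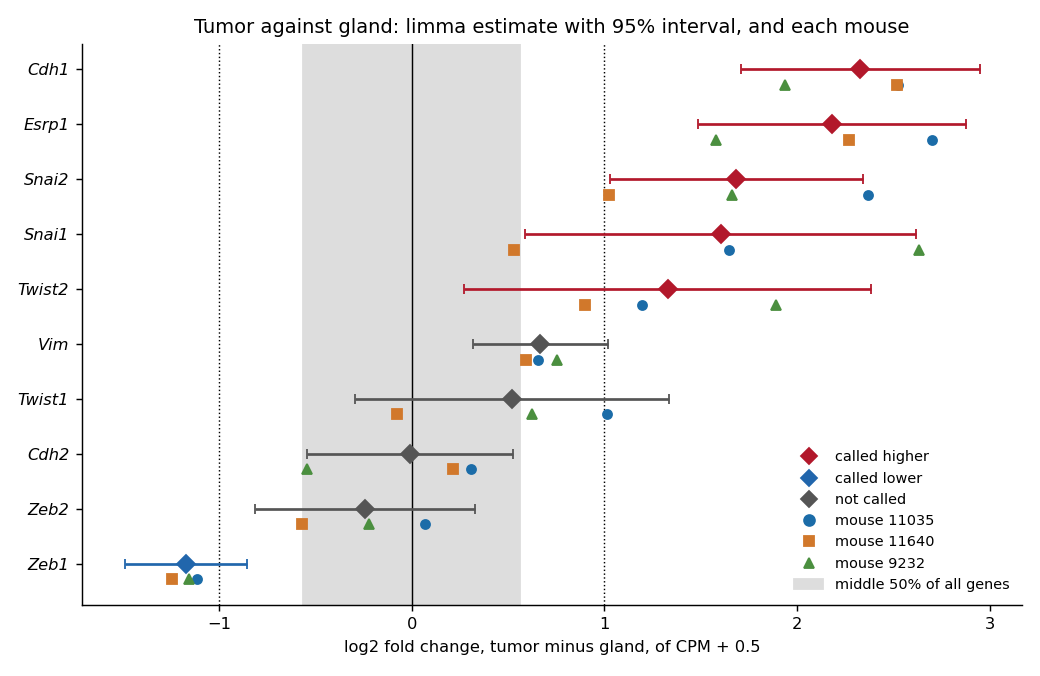
Log2 fold change of CPM + 0.5, tumor minus gland, for the 10 genes: diamonds with bars are limma estimates with 95% intervals (red called higher, blue called lower, grey not called), and the smaller symbols under them are the 3 within-mouse differences. *Cdh1* (2.33) and *Esrp1* (2.18) lead and *Zeb1* (-1.17) is lowest, outside the grey band that holds the middle 50% of all genes.

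Of 12 further EMT-inducing transcription factors, 8 had values, and 2 were called higher, beside 14.5% of all genes, with a median log2 fold change of 0.08 beside -0.00 for all genes. *Sox4*, an SRY-box factor, was highest at 1.10. The other gene called higher, *Prrx1*, a homeobox factor of mesenchyme, rose by 1.07 and is named because it completes the count. The 2 higher calls became 1 with edgeR or DESeq2 and 0 without gland M11035 or tumor T11035. *Snai3*, *Foxc2*, *Gsc* and *Fosl1* were not analysed here.

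Factors that hold the epithelial state and oppose EMT were mostly higher in the tumors. Of the 9 with values, 6 were called higher and 2 lower, beside 14.5% and 13.7% of all genes, with a median of 1.76. *Grhl3*, a grainyhead factor of the epidermal barrier, rose most, from 0.884 ± 0.244 to 87.3 ± 21.2 CPM (log2 fold change 5.97, SE 0.26, adjusted p = 1.76e-06, limma). *Ovol1*, a zinc finger factor of epithelial differentiation, rose from 0.814 ± 0.420 to 35.0 ± 8.83 CPM, and *Grhl2*, an activator of *Cdh1*, rose from 18.1 ± 7.80 to 48.0 ± 4.67 CPM. *Klf5*, *Grhl1* and *Elf3* rose by 3.87, 2.63 and 1.76 on the log2 scale. The 2 that fell, *Elf5* by 2.59 and *Cebpa* by 1.99, are known as regulators of milk-producing alveolar cells and of fat cells respectively, and the adipocyte markers were lower in the same tumors. The part of these cell types in the levels of *Elf5* and *Cebpa* was not tested. *Ehf* did not pass (0.84, adjusted p = 0.09002, limma), and *Ovol2* was not analysed here.

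A list of 14 genes held corepressors and stability factors of the Snail and ZEB repressors together with genes of the Id family. Of the 14 genes, 4 were called higher, beside 14.5% of all genes, and the other 10 were not called. Their median log2 fold change was 0.58, and the upper quartile of all genes was 0.56. *Jub* (Ajuba), a LIM protein that works with Snail, rose most, by 2.04, and *Ctbp1*, a corepressor of ZEB factors, was lowest at -0.27. The other higher calls, which complete the count, were *Id1*, which rose from 2.57 ± 1.23 to 11.4 ± 3.39 CPM, *Rcor1* (1.11) and *Id3* (1.06). Of 9 TGF-β inputs to EMT 0 were called by limma, although 3 had an unadjusted p under 0.05, and edgeR and DESeq2 each called 1 lower. *Tgfb2* was highest at 0.74 and *Tgfb3*, the ligand with the lowest value, was at -0.94 (adjusted p = 0.0308, limma), just under the required fold.

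Among other cadherins the rise was not limited to *Cdh1*. Of the 4 with values, 2 were called higher, beside 14.5% of all genes. *Cdh3*, the P-cadherin of basal epithelium, rose from 3.61 ± 0.883 to 45.8 ± 6.82 CPM. *Cdh11*, the cadherin of fibroblasts and osteoblasts, rose from 66.5 ± 22.5 to 416 ± 95.2 CPM. *Cdh5* and *Cdh13*, at -0.12 and -0.22 on the log2 scale, did not pass, and *Cdh4*, *Cdh6* and *Cdh15* were not analysed here. Of 6 catenins and junction partners, plakoglobin (*Jup*) rose by 2.53 and β-catenin (*Ctnnb1*) by 1.86, beside 14.5% of all genes called higher. The other 4 were not called, and the median of the 6 was 0.79.

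Of the filament genes near *Vim*, *Nes* rose by 1.08, and *Des* and *Synm*, which are filament genes of muscle, fell by 2.92 and 1.95. *Des* was at 106, 32.4 and 7.93 CPM in glands M11035, M11640 and M9232, the same order as their skeletal muscle markers, and that part was not tested. Without gland M9232 the call of *Nes* was lost, and without tumor T11035 or T11640 only 1 of the 2 lower calls remained. *Gfap* and *Prph* were not analysed here.

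*Esrp2*, the paralog of *Esrp1*, rose from 3.82 ± 0.884 to 22.8 ± 2.51 CPM (log2 fold change 2.44, SE 0.23, adjusted p = 7.56e-05, limma). Of the 10 splicing regulators that act with or against *Esrp1*, *Rbfox2*, known for mesenchymal exon choice, also rose, by 1.21, and *Celf2* and *Mbnl1* fell by 2.04 and 1.04. The median of the 10 was 0.22. Of 8 genes with exons known to depend on Esrp proteins, *Enah* (2.87), *Cd44* (2.46) and *Fgfr2* (1.78) were called higher, beside 14.5% of all genes. The median over the 8 was 0.94. The table gives gene totals, so the splice forms of these genes cannot be read from it.

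The epithelial and the mesenchymal gene lists of EMT both held higher calls. Of 25 epithelial genes known to be repressed in EMT 12 were called higher, with a median log2 fold change of 0.98. *Dsp*, the desmosomal plaque gene desmoplakin, was highest at 5.62, and *Muc1*, an apical mucin, was lowest at -1.77 (adjusted p = 0.0797, limma), where edgeR and DESeq2 each called 1 gene of the list lower. Among the others, the luminal keratin gene *Krt8* rose from 16.6 ± 8.61 to 54.8 ± 20.4 CPM, while *Epcam*, a general epithelial surface marker, was at 151 ± 65.7 and 211 ± 15.4 CPM and did not pass (adjusted p = 0.124, limma). Of 25 mesenchymal genes known to be induced in EMT 19 were called higher, with a median of 2.60. *Col1a1*, a fibrillar collagen chain, was highest at 4.63 and *Itgb3*, an integrin subunit, was lowest at -0.40. Fibronectin (*Fn1*) rose from 323 ± 209 to 1737 ± 215 CPM and tenascin C (*Tnc*) from 53.5 ± 14.4 to 1177 ± 134 CPM, while smooth muscle actin (*Acta2*) was at 102 ± 68.2 and 119 ± 18.9 CPM and did not pass (adjusted p = 0.446, limma). The shares stand beside the 14.5% of all genes called higher. The mesenchymal list shares *Col1a1*, *Col1a2* and *Col3a1* with the 8 fibroblast markers, and these were the 3 fibroblast markers called higher. *Dpt* was called lower, at -2.70 on the log2 scale. *Pdgfra* (-0.23), *Dcn* (0.09), *Pi16* (-0.03) and *Lum* (1.19) were not called. The sums of the fibroblast markers, collagen genes included, were 1012 to 4389 CPM in the glands and 8456 to 9095 CPM in the tumors. *Snai2*, *Twist2* and *Vim* were higher in the same tumors, and the part of fibroblasts in their levels was not tested.

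**Figure D5:**
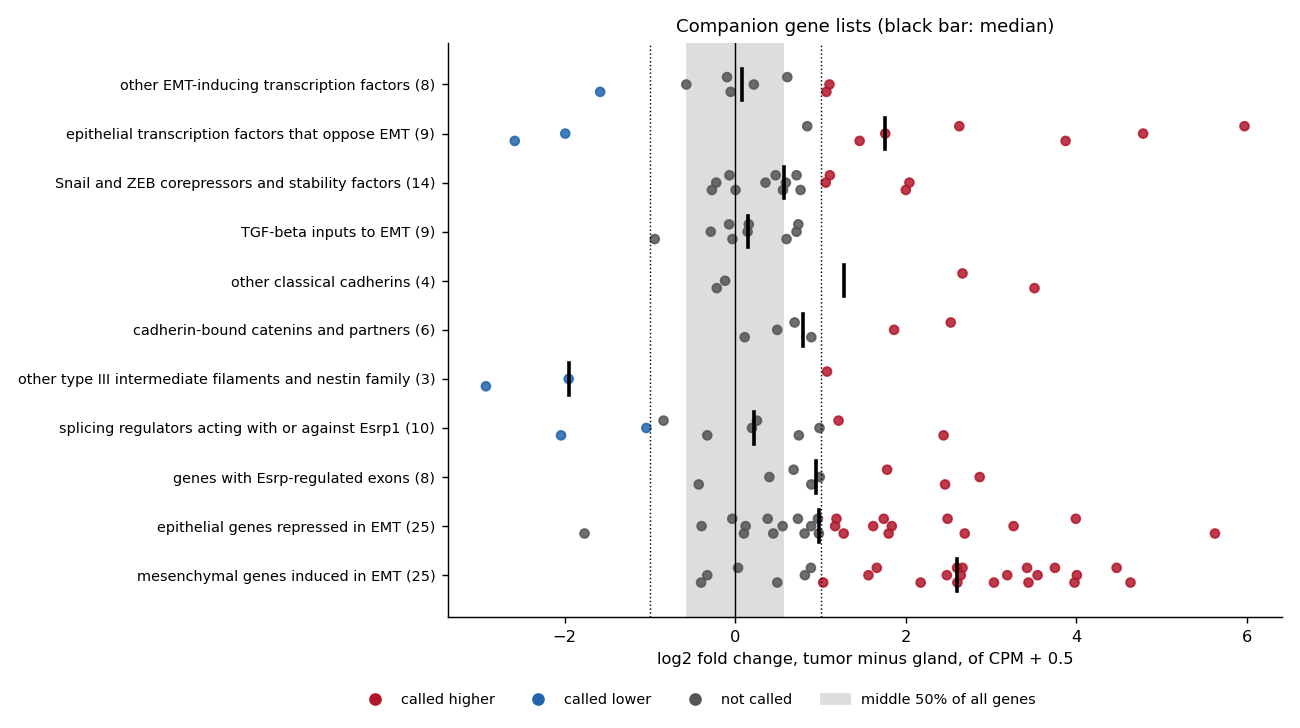
Log2 fold change of CPM + 0.5, tumor minus gland, of each gene of 11 lists around EMT (number of genes in the table in parentheses), with points red for called higher, blue for called lower and grey for not called, a black bar for the list median and a grey band for the middle 50% of all genes. The medians of the mesenchymal list (2.60), of the epithelial factors that oppose EMT (1.76) and of the epithelial list (0.98) lie to the right of the band, and that of the TGF-β inputs (0.14) lies in it.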

How the data were processed

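RNA-Seq libraries were made from total RNA of 3 tumors and 3 adjacent glands with an amplifying kit (Ovation RNA-Seq System V2). Per the labels, the authors used CASAVA 1.8.2, TopHat2 2.0.3, HTSeq 0.5.3p9 and edgeR 3.6.1 with mm9, and counted fragments per RefSeq gene. Whether counting used strand is not given in the sources used here. The authors deposited a normalized signal, CPM by edgeR's effective library size, so columns sum to 952151 to 1041166. The planned test assumed CPM, and the same test was kept. In each library 100% of values were whole multiples of 1 fragment (tolerance 0.01 fragments), so fragments were recovered, and edgeR 4.0.16 and DESeq2 1.42.0 on them were alternatives. All per-sample columns were used.

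The test was limma 3.58.1 (R 4.3.3), two-sided and with trended variance, to log2 of the CPM plus 0.5 of all 15280 genes, with Benjamini-Hochberg adjustment over all of them. Ratios were tested by exact permutation over libraries. The scripts were tested on simulated data. Gland and tumor libraries with the same number are from 1 animal, so the numbers pair them. Their deviations correlated with r = 0.107, 0.151 and 0.0168 (M11035, M11640 and M9232 with their tumors) over 14712 genes. Between a gland and a tumor of different mice, r ran from -0.168 to 0.0405, so the value of M9232 does not set its pair apart. The methods name no mouse term, so the fit with the pairing block was an alternative. Gene positions are GENCODE vM1 on mm9. A BLAST 2.17.0 search found 0 near-identical transcripts (at least 95% over 500 bases) for the 10 genes.

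The genes and lists were chosen with earlier results of these data known. All 10 genes are named. From lists of more than 10 genes the highest and the lowest gene are named, and in lists of 10 or fewer any gene could be named. The result of 1 list gene is not reported here. *Prrx1*, *Id1*, *Rcor1*, *Id3*, *Krt8*, *Epcam*, *Fn1*, *Tnc*, *Acta2*, *Krt5*, *Atf3* and *Gm13476* were named after their values were seen. So were *Cldn4* and the basal, fibroblast and neutrophil markers named singly. Of 129 list genes 119 had values, as had 78 of 80 marker genes.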

Additional observations from a re-analysis of the deposited data

How the results depend on the processing

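Each of 16 alternatives was applied to every one of the 10 genes: 2 other pseudocounts, a filter on low CPM, a replicate block, other scalings, no trend, edgeR, edgeR with the block, DESeq2 and each library left out in turn. *Snai2*, *Twist1*, *Zeb1*, *Zeb2*, *Cdh1*, *Vim* and *Esrp1* kept direction and call in all of them. With libraries left out, the number of genes called higher ranged from 3 to 5. The log2 fold change of *Snai1* ranged from 1.33 to 1.98 and that of *Twist2* from 1.02 to 1.77, and both lost their call in some of these fits. Over all 16 alternatives *Snai1* ranged from 1.22 to 2.48, the highest with DESeq2, and *Twist2* reached 1.99. With a pseudocount of 0.1, *Twist2* was at 1.74 and just missed the threshold (adjusted p = 0.05045, limma). *Cdh2* turned sign with DESeq2 (0.0038) and ranged from -0.11 to 0.16 with libraries left out. The cause was not tested. With the replicate block, *Snai1* stayed at 1.60 (adjusted p = 0.0376, limma) and *Twist2* at 1.33 (adjusted p = 0.0312, limma), and no call of the 10 genes changed. For the lists, 332 of 352 counts of calls stayed within 1.5 times the reported one and 20 did not. All 90 alternative values of the ratios stayed within 1 SD of the reported one, taking the tissue with the larger SD. That bound is wide for noisy ratios: *Snai2* to *Snai1*, at 0.08, went to -0.55 and 0.44 with other pseudocounts and stayed within it. For each of the 10 ratios the value with the replicate block equals the reported one by construction, so it could not move. Depth limits *Snai1* and *Twist2*, whose gland values rest on 1 to 5 fragments.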

Other observations

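For each called gene, the 3 genes with the most similar pattern over the 6 libraries were listed among 9339 genes averaging 10 CPM or more, by the root mean square difference of their centred log2 values. For *Zeb1* these were *Nr3c1*, which encodes the glucocorticoid receptor (0.064), *Gnas*, a G protein subunit gene (0.066), and *Cdadc1* (0.079). For *Snai2* they were *Gm10406* (0.13), *Dnm3os* (0.16) and *Plagl1* (0.17). *Cx3cr1*, a chemokine receptor gene, was the gene most like both *Cdh1* (0.16) and *Esrp1* (0.12), followed by *Mex3a* and *Gpr35* for *Cdh1* and by *Cdcp1* and *Cstb* for *Esrp1*. The low genes *Snai1* and *Twist2* had less similar matches, with *Cd300lf* nearest to *Snai1* and *Slfn2* nearest to *Twist2*, both at 0.28.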
